A study of Sus scrofa with 29 samples.

Results

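Heme oxygenase 1, quinone reductase and the enzymes that make, recycle and use glutathione were followed in the artery lining of exercise-trained and sedentary pigs. The members are the probe sets whose gene symbol on the array platform is HMOX1, HMOX2, NQO1, GCLC, GCLM, GSR or GSTA1. The rule found 16 of the 23999 probe sets tested: 1 each for HMOX1, HMOX2 and NQO1, 5 for GCLC, 2 for GCLM, 3 for GSR and 3 for GSTA1. In the training comparisons none of the 16 passed the test in either artery, where 1.63% (brachial) and 0.596% (internal mammary) of all probe sets did. Between the arteries, averaged over training, 9 of 16 passed, against 54.3% of all probe sets. The widest member differences were those of 1 GSR probe set, lower in the brachial artery, and 1 GSTA1 probe set, higher there.

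NRF2, encoded by NFE2L2, is a transcription factor that its partner KEAP1 keeps at a low level until oxidants or electrophiles modify KEAP1. It then binds antioxidant response elements and raises genes of heme breakdown, quinone reduction and glutathione metabolism. In endothelium the pathway is known to respond to oxidants and to the shear stress of flowing blood. NFE2L2 and KEAP1 themselves were not analysed here.

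The groups were brachial artery of exercised pigs (n = 7), brachial artery of sedentary pigs (n = 7), internal mammary artery of exercised pigs (n = 8) and internal mammary artery of sedentary pigs (n = 7). Exercised pigs ran on a treadmill for 16 to 20 weeks, reached 85 min a day on 5 days a week by week 10, and were sampled about 24 h after the last bout, while sedentary pigs stayed in their enclosures and were not trained. All were healthy pigs of unstated breed, age and sex. The 29 arrays came from 15 pigs, 14 of them with both arteries, and exercised pig 12_2 had the internal mammary artery alone.

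Each sample was the RNA of a scraped inner vessel surface, an enriched and not a pure endothelial sample. Of 14 endothelial markers 12 were measured, and 11 of these lay above the dimmest 33.3% of probe sets, the exception being KDR. Their mean level ran from 10.62 to 11.32 log2 units over all groups. The 10 measured smooth muscle markers had mean levels from 11.14 to 13.23 and the 10 macrophage markers from 8.09 to 9.39. In such bulk samples fewer cells of a type and less RNA per cell cannot be told apart. Every value below is a log2 probe set intensity, or a difference of these. Such values rank samples within a probe set and give no comparison of one gene's level with another's. Of the 16 members, 7 lay in the dimmest 33.3%: GCLC Ssc.11731.1.A1_at and Ssc.29035.1.S1_at, GCLM Ssc.24693.1.S1_at, GSR Ssc.23488.1.A1_at and all 3 GSTA1 probe sets.

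**Figure D1:**
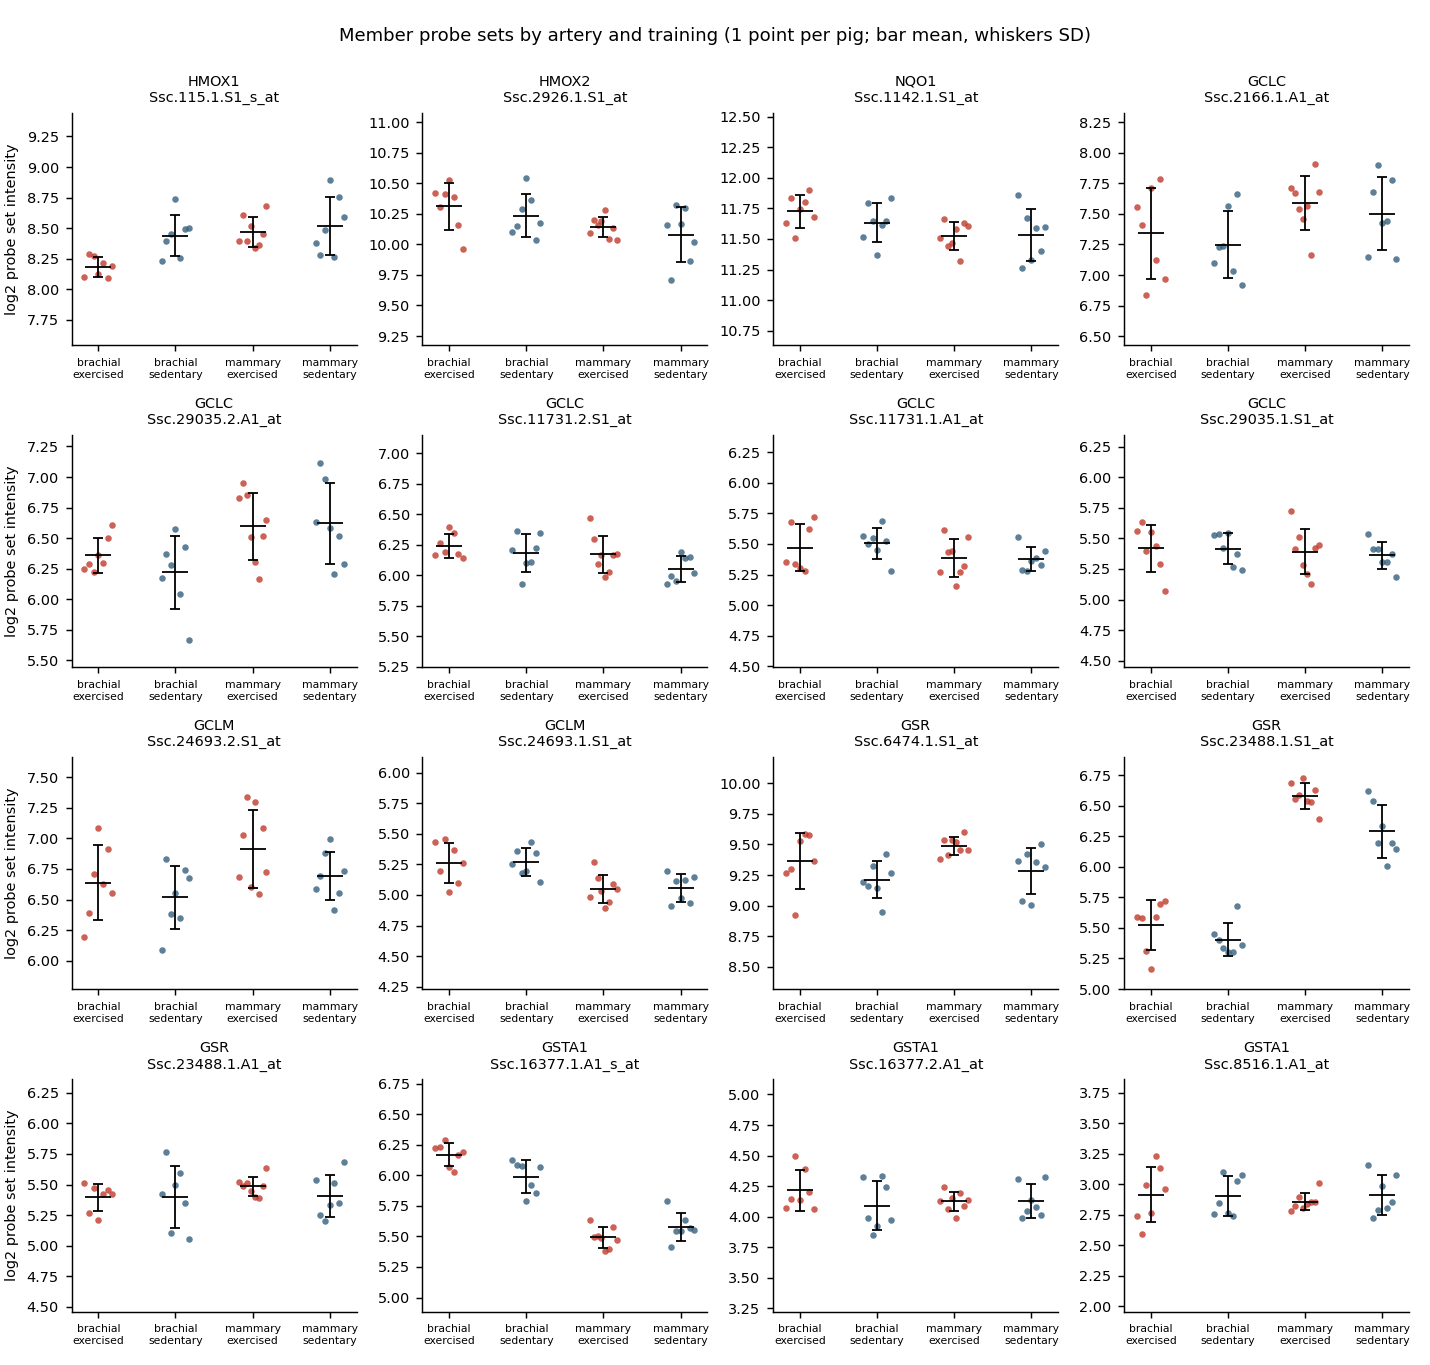
Log2 intensity of the 16 member probe sets in the 4 groups, 1 point per pig, with the group mean (bar) and SD (whiskers). Every panel spans the same number of log2 units around its own centre. The brachial points of GSR Ssc.23488.1.S1_at (highest 5.72) lie below all its internal mammary points (lowest 6.01), while within each artery the exercised and sedentary points overlap for all 16 probe sets. The share of all probe sets without overlap between arteries was not counted.

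The first question was whether training changed these genes. None of 16 member probe sets passed an adjusted p of 0.05 in the brachial artery, where 1.63% of all probe sets did, and none passed in the internal mammary artery, where 0.596% did. With both arteries averaged none passed either, against 4.68% of all probe sets. With single pigs left out no member passed, while the shares of all probe sets moved. They ran from 0.621% (without exercised pig 12_5) to 2.45% (without pig 15_4) in the brachial artery and from 0.146% (without pig 10_5) to 1.21% (without pig 10_2) in the internal mammary artery. At an unadjusted p under 0.05 there were 2 members in the brachial artery (15.4% of all probe sets), 2 in the internal mammary artery (12.3%) and 3 in the average (18.5%). The median member change was 0.08 in the brachial artery and 0.02 in the internal mammary artery, against 0.01 for all probe sets in each. No member had exercised and sedentary values that failed to overlap, against 0.604% of all probe sets in brachial arteries and 0.288% in internal mammary arteries. The fitted member changes ran from -0.25 to 0.29, so the largest was 1.22-fold.

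**Figure D2:**
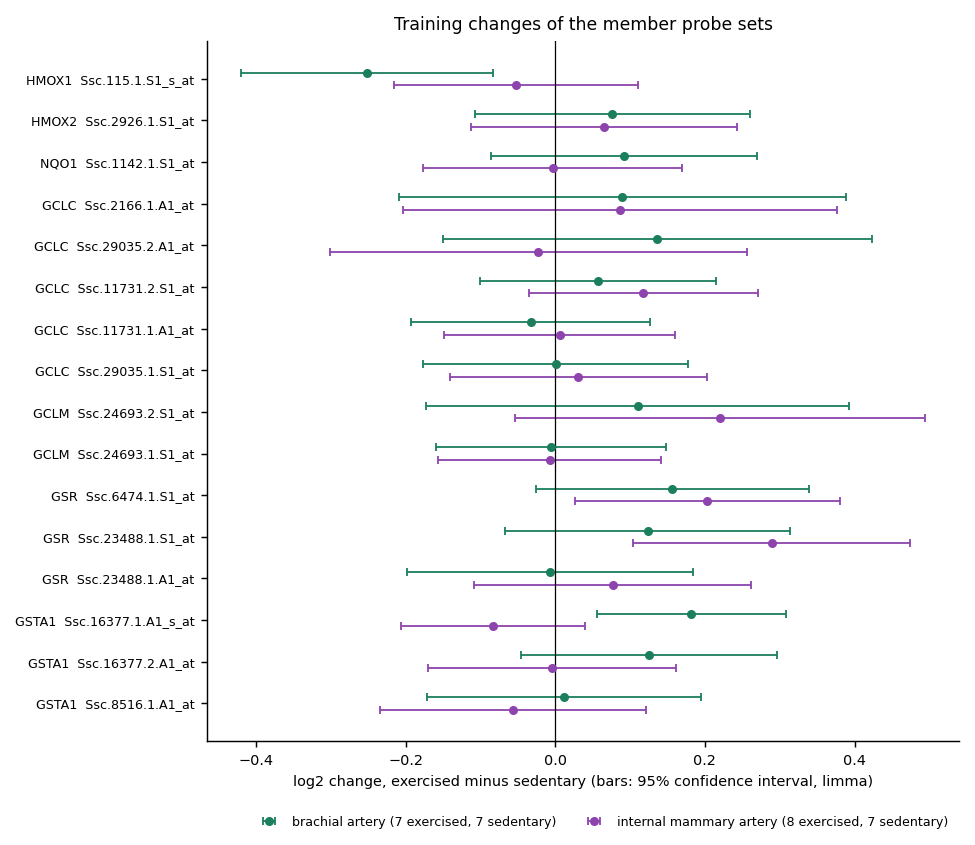
Log2 change with training (exercised minus sedentary) of each member probe set in the brachial and the internal mammary artery, with limma's 95% confidence interval. HMOX1 in the brachial artery (-0.25), GSTA1 Ssc.16377.1.A1_s_at in the brachial artery (0.18) and 2 GSR probe sets in the internal mammary artery (0.29 and 0.20) have intervals that leave out 0, and none of them passed after adjustment over all probe sets.

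HMOX1 (Ssc.115.1.S1_s_at) encodes the inducible heme oxygenase, which splits heme into biliverdin, iron and carbon monoxide and is abundant in macrophages that clear red cells. In the brachial artery its lowest, median and highest values were 8.09, 8.19 and 8.29 in exercised pigs, against 8.23, 8.45 and 8.74 in sedentary pigs. All 7 exercised values lay below the sedentary mean, and the groups overlapped between 8.23 and 8.29. The change was -0.25 ± 0.08 (SE), with a 95% interval from -0.42 to -0.08 and an adjusted p = 0.109 by limma, so it did not pass. It was -0.23 in pigs collected first (3 exercised, 4 sedentary) and -0.26 in those collected last (4 exercised, 3 sedentary). Here and below, first and last follow a label named only date, which was read as the day of collection. In the internal mammary artery HMOX1 had 8.34, 8.42 and 8.68 in exercised pigs, against 8.27, 8.49 and 8.89 in sedentary pigs. The exercised values there lay within the sedentary range, with a change of -0.05 ± 0.08 (95% interval -0.22 to 0.11, adjusted p = 0.858).

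Macrophage markers moved with HMOX1. Their mean, centred on all 29 arrays, was -0.345 ± 0.186 in brachial arteries of exercised pigs and 0.130 ± 0.319 in those of sedentary pigs (SD, n = 7 each), lower in 7 of 7 exercised pigs (exact permutation test, two-sided, p = 0.00408, adjusted over 45 marker and quality tests p = 0.0229). Of the 10 markers measured, 3 fell in that artery and 7 did not pass, and none of the 10 lay in the dimmest 33.3%. Their uncentred mean level ran from 8.09 to 8.56 in brachial arteries of exercised pigs and from 8.41 to 9.39 in those of sedentary pigs. In internal mammary arteries it ran from 8.34 to 9.07 in exercised pigs and from 8.47 to 9.25 in sedentary pigs. Over the 14 brachial arrays HMOX1 and the marker mean had Pearson's r = 0.87 (permutation p = 0.00015, adjusted over 2 relations p = 0.0003) and Spearman's rho = 0.74 (p = 0.00373, adjusted p = 0.00746), and r was 0.71 without the 2 pigs farthest from the median. That relation spans both groups. Within them r was 0.31 in the 7 exercised and 0.87 in the 7 sedentary pigs. Over the 15 internal mammary arrays r was 0.58 (permutation p = 0.0218, adjusted p = 0.0218) and rho 0.53 (p = 0.0462, adjusted p = 0.0462), and r was 0.18 without the 2 farthest pigs, so that relation rests on them. With the macrophage mean as a covariate the HMOX1 training change in the brachial artery was -0.08 ± 0.09 (adjusted p = 0.806). That covariate left 0.0708% of all probe sets called for training in the brachial artery, against 1.63% without it. Whether macrophage content accounts for the HMOX1 change was not tested.

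**Figure D3:**
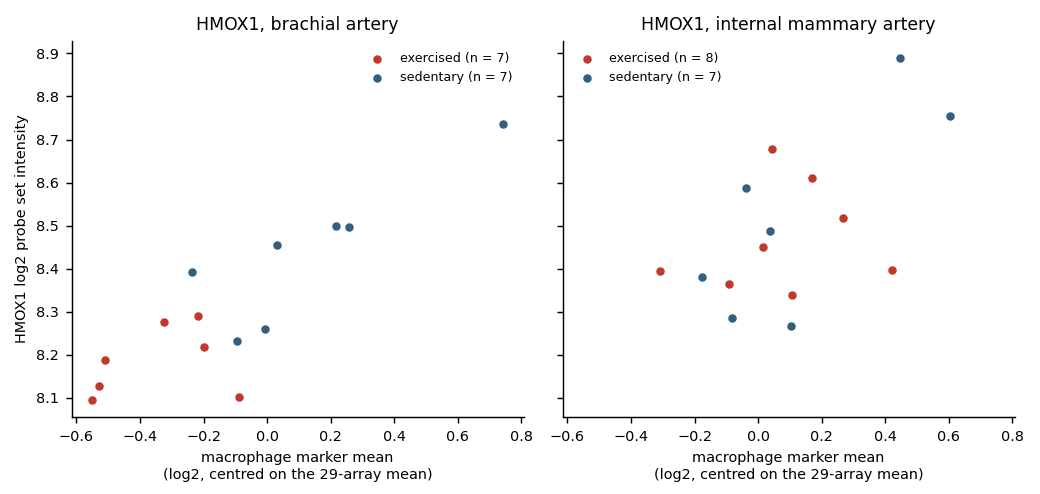
HMOX1 log2 intensity against the mean of 10 macrophage markers (log2, centred on the mean of the 29 arrays) in each brachial array (left) and each internal mammary array (right), exercised and sedentary pigs in separate colours. In the brachial artery the exercised pigs hold the low end of both axes, with HMOX1 between 8.09 and 8.29, and the sedentary pigs run up to 8.74.

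HMOX2 (Ssc.2926.1.S1_at), the constitutive heme oxygenase, had 9.96, 10.39 and 10.53 in brachial arteries of exercised pigs, against 10.03, 10.17 and 10.54 in those of sedentary pigs. The groups overlapped over nearly their whole range, with a change of 0.08 (95% interval -0.11 to 0.26, adjusted p = 0.753). In the internal mammary artery it had 10.04, 10.15 and 10.28 in exercised pigs, against 9.71, 10.16 and 10.32 in sedentary pigs, a change of 0.07 (95% interval -0.11 to 0.24, adjusted p = 0.832). In the internal mammary artery the exercised values lay within the sedentary range.

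NQO1 (Ssc.1142.1.S1_at) reduces quinones by 2 electrons and is a widely used readout of NRF2 activity. Its brachial values were 11.50, 11.74 and 11.90 in exercised pigs, against 11.37, 11.65 and 11.84 in sedentary pigs, and its internal mammary values were 11.32, 11.54 and 11.66 in exercised pigs, against 11.26, 11.59 and 11.86 in sedentary pigs. Exercised and sedentary pigs overlapped in both arteries. The changes were 0.09 (95% interval -0.09 to 0.27, adjusted p = 0.678) in the brachial and -0.004 (95% interval -0.18 to 0.17, adjusted p = 0.996) in the internal mammary artery.

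Glutamate-cysteine ligase makes the first and rate-limiting step of glutathione synthesis and is built from a catalytic subunit, GCLC, and a modifier subunit, GCLM, that raises its activity. The 5 GCLC probe sets had training changes from -0.03 to 0.14 in the brachial artery and from -0.02 to 0.12 in the internal mammary artery, and none passed. The brightest of them, Ssc.2166.1.A1_at, had 6.84, 7.41 and 7.79 in brachial arteries of exercised pigs, against 6.92, 7.23 and 7.66 in those of sedentary pigs. Its 95% interval, from -0.21 to 0.39, was among the widest of the members. Of the 2 GCLM probe sets, Ssc.24693.2.S1_at changed by 0.11 (95% interval -0.17 to 0.39) in the brachial and 0.22 (95% interval -0.05 to 0.49, adjusted p = 0.546) in the internal mammary artery, and Ssc.24693.1.S1_at by -0.01 in each.

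GSR encodes glutathione reductase, which returns oxidised glutathione to its reduced form with NADPH. Probe set Ssc.23488.1.S1_at had 6.39, 6.57 and 6.73 in internal mammary arteries of exercised pigs, against 6.01, 6.20 and 6.62 in those of sedentary pigs. All 8 exercised values lay above the sedentary mean, and the ranges overlapped. The change was 0.29 ± 0.09 (95% interval 0.10 to 0.47), with adjusted p = 0.135 by limma. A second probe set, Ssc.6474.1.S1_at, had 9.38, 9.49 and 9.60 in exercised pigs, against 9.00, 9.35 and 9.50 in sedentary pigs of the same artery. Again all 8 exercised values lay above the sedentary mean, with a change of 0.20 ± 0.09 (95% interval 0.03 to 0.38) and adjusted p = 0.316. In the brachial artery the changes were 0.12 (95% interval -0.07 to 0.31) for the first and 0.16 (95% interval -0.03 to 0.34) for the second.

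The third GSR probe set, Ssc.23488.1.A1_at, which the platform derives from the same sequence record as Ssc.23488.1.S1_at, changed by 0.08 (95% interval -0.11 to 0.26) in the internal mammary and -0.01 (95% interval -0.20 to 0.18) in the brachial artery. Averaged over both arteries GSR changed by 0.21 ± 0.07 (adjusted p = 0.0998) by Ssc.23488.1.S1_at and by 0.18 ± 0.07 (adjusted p = 0.141) by Ssc.6474.1.S1_at. The first passed with array weights in the internal mammary artery (0.32, adjusted p = 0.0495) and without the pig block in the average (0.20, adjusted p = 0.0426). Among pigs collected first and last, its internal mammary change was 0.22 and 0.40, and that of Ssc.6474.1.S1_at was 0.26 and 0.12. The 28S/18S ratio, a measure of RNA integrity, was 1.33 ± 0.08 in internal mammary samples of exercised pigs (n = 8) and 1.19 ± 0.08 in those of sedentary pigs (n = 7), higher in 8 of 8 (exact permutation p = 0.00544, adjusted p = 0.0272). With that ratio as a covariate the 2 GSR changes were 0.29 and 0.25.

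GSTA1, a glutathione S-transferase, couples glutathione to electrophiles. Its 3 probe sets lay in the dimmest 33.3%, and Ssc.16377.1.A1_s_at is assigned to 2 transcript records, of which 1 was found in the RefSeq gene table used here, so it may read more than 1 transcript. This probe set had 6.02, 6.19 and 6.29 in brachial arteries of exercised pigs, against 5.79, 6.07 and 6.12 in those of sedentary pigs. All 7 exercised values were above the sedentary mean, with overlap between 6.02 and 6.12 (change 0.18 ± 0.06, 95% interval 0.06 to 0.31, adjusted p = 0.124). In the internal mammary artery it had 5.38, 5.49 and 5.64 in exercised pigs, against 5.42, 5.55 and 5.79 in sedentary pigs, a change of -0.08 (95% interval -0.21 to 0.04). The other two GSTA1 probe sets changed by 0.13 and 0.01 in the brachial and by -0.004 and -0.06 in the internal mammary artery, and their intervals held 0.

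Whether training acted differently in the 2 arteries was tested as the brachial change minus the internal mammary change. Of all probe sets 0% passed by limma, and 4.31% had an unadjusted p under 0.05. Among the members only GSTA1 Ssc.16377.1.A1_s_at was under 0.05 (0.26 ± 0.07, adjusted p = 0.793). HMOX1 had -0.20 ± 0.10 (95% interval -0.40 to 0.005, adjusted p = 0.9998).

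The second question was how the 2 arteries differ. The brachial artery supplies the working forelimb and the internal mammary artery the chest wall. Averaged over training, 9 of 16 members passed between brachial and internal mammary arteries, against 54.3% of all probe sets. Of these 4 were higher and 5 lower in the brachial artery, where 31.8% and 22.5% of all probe sets were. In exercised pigs 5 members passed (background 41.2%), and in sedentary pigs 4 (background 34.8%). The median member difference was 0.02, against 0.03 for all probe sets. All 14 pigs differed in 1 direction for 2 members, and for 15.7% of all probe sets. These contrasts share arrays with the training contrasts.

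Array-level measures differed between the arteries as well. The bioB spike, a bacterial transcript added to every sample, read 9.43 ± 0.20 on brachial arrays and 8.61 ± 0.19 on internal mammary arrays of the 14 pigs (SD), higher in 14 of 14 (exact sign-flip p = 0.000122, the smallest possible, adjusted p = 0.0011). Actin probe sets at the 3′ end of the transcript, less those at its 5′ end, gave 0.81 ± 0.23 on brachial and -0.03 ± 0.22 on internal mammary arrays, again higher in 14 of 14 with the same p. The 28S/18S ratio was 1.40 ± 0.18 on brachial and 1.25 ± 0.10 on internal mammary arrays (higher in 11 of 14, exact sign-flip p = 0.00635, adjusted p = 0.0286), and the fibroblast marker mean was 0.41 higher on brachial arrays (13 of 14, adjusted p = 0.00157). Artery and these array-level differences cannot be told apart. The actin difference ran from 0.57 to 1.24 on brachial and from -0.27 to 0.38 on internal mammary arrays, without overlap. A fit with it as a covariate therefore rests on its slope within arteries and cannot settle the artery difference. With the actin difference as a covariate 2 of 16 members passed in the average, against 9.51% of all probe sets, and both are described next.

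GSR Ssc.23488.1.S1_at had 5.17, 5.59 and 5.72 in brachial arteries of exercised pigs, against 6.39, 6.57 and 6.73 in their internal mammary arteries. In sedentary pigs it had 5.30, 5.36 and 5.68 in the brachial, against 6.01, 6.20 and 6.62 in the internal mammary artery. The ranges of the arteries did not overlap, and the probe set was lower in the brachial artery in 14 of 14 pigs, with differences from -1.37 to -0.52. All 14 pigs differed in 1 direction for 15.7% of all probe sets, and the share without overlap between arteries was not counted. The fitted difference was -1.05 ± 0.08 in exercised pigs (adjusted p = 3.56e-11) and -0.89 ± 0.08 in sedentary pigs (adjusted p = 2.16e-09), or 1.96-fold lower in the average. It was -1.09 in pigs collected first, -0.82 in those collected last and -0.69 ± 0.14 (adjusted p = 0.00242) with the actin covariate.

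The other two GSR probe sets did not show that difference. Ssc.6474.1.S1_at differed by -0.10 (95% interval -0.21 to 0.01, adjusted p = 0.126) and Ssc.23488.1.A1_at by -0.05 (95% interval -0.17 to 0.06, adjusted p = 0.463). Within pigs the artery difference of Ssc.23488.1.S1_at lay below that of Ssc.6474.1.S1_at (which minus it averaged 0.87) and below that of Ssc.23488.1.A1_at (mean -0.91), in 14 of 14 pigs each (exact sign-flip p = 0.000122, the smallest possible, adjusted over 17 pairs of probe sets p = 0.000415). The 3 probe sets had the same sign and differed in size and call. Every brachial value of Ssc.23488.1.S1_at lay under 5.96, the upper limit of the dimmest 33.3% of probe sets, and every internal mammary value above it.

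GSTA1 Ssc.16377.1.A1_s_at was higher in the brachial artery in 14 of 14 pigs. It had 6.02, 6.19 and 6.29 in brachial arteries of exercised pigs, against 5.38, 5.49 and 5.64 in their internal mammary arteries, and 5.79, 6.07 and 6.12 in brachial arteries of sedentary pigs, against 5.42, 5.55 and 5.79 in their internal mammary arteries. In exercised pigs the arteries did not overlap, and in sedentary pigs they met at 5.79. For neither was the share of all probe sets counted. The difference was 0.68 ± 0.05 in exercised pigs (adjusted p = 6.72e-11) and 0.41 ± 0.05 in sedentary pigs (adjusted p = 1.03e-06), 1.46-fold higher in the average, and 0.50 ± 0.10 (adjusted p = 0.00223) with the actin covariate. The gene's other probe sets differed by 0.03 and 0.02, with 95% intervals from -0.08 to 0.13 and from -0.09 to 0.13, and the difference of Ssc.16377.1.A1_s_at exceeded each in 14 of 14 pigs (0.52 log2 units each, exact sign-flip, adjusted p = 0.000415).

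**Figure D4:**
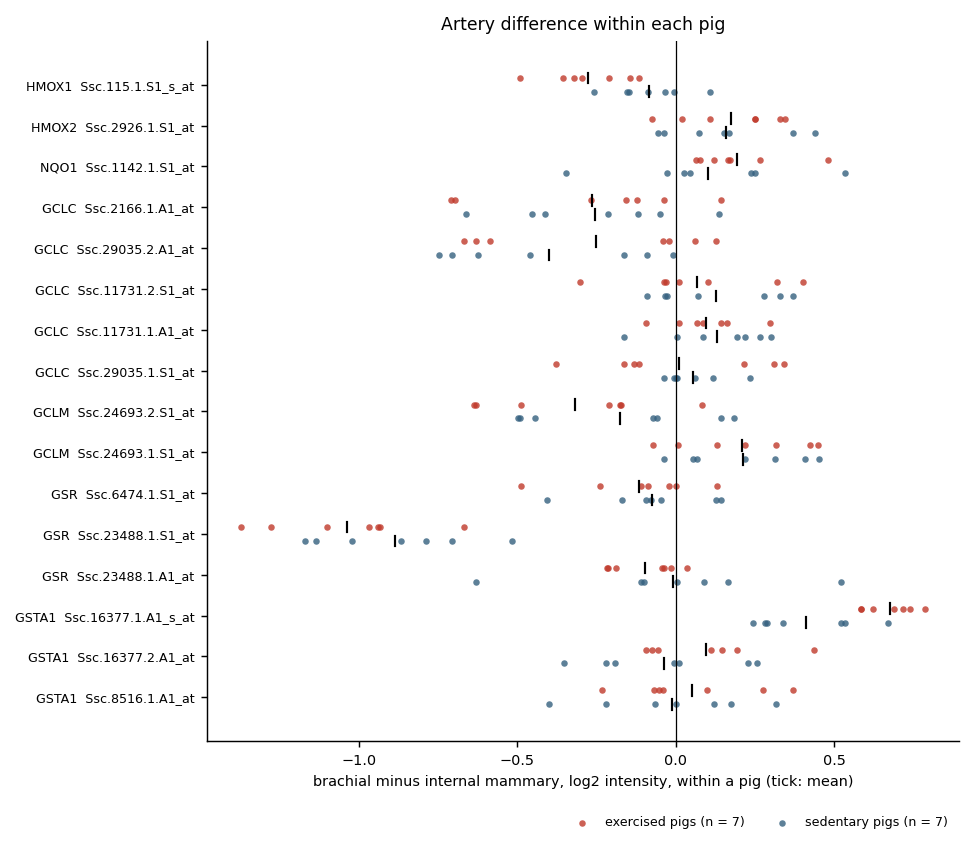
Brachial minus internal mammary log2 intensity of each member probe set within each pig (1 point per pig, 7 exercised above 7 sedentary, tick at the mean). GSR Ssc.23488.1.S1_at lies left of 0 and GSTA1 Ssc.16377.1.A1_s_at right of 0 in 14 of 14 pigs, and the other probe sets of both genes lie around 0.

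HMOX1 was lower in the brachial artery in 13 of 14 pigs, with an average difference of -0.18 ± 0.05 (adjusted p = 0.00286). The difference was -0.28 ± 0.07 in exercised pigs (7 of 7 lower, adjusted p = 0.00183) and -0.08 ± 0.07 in sedentary pigs (6 of 7 lower, adjusted p = 0.389), and the test of these against each other is the one given above, which it did not pass. The macrophage marker mean differed by -0.196 between brachial and internal mammary arrays (lower in 11 of 14 pigs, exact sign-flip p = 0.0342, adjusted p = 0.118). With it as a covariate HMOX1 differed by -0.11 ± 0.05 in the average (adjusted p = 0.0689) and by -0.13 ± 0.07 in exercised pigs (adjusted p = 0.201). That covariate left 49.3% of all probe sets called in the average and 30.5% in exercised pigs, against 54.3% and 41.2% without it. In pigs collected first HMOX1 differed by -0.16 (adjusted p = 0.166) and in those collected last by -0.21 (adjusted p = 0.0311).

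HMOX2 and NQO1 were higher in the brachial artery. HMOX2 differed by 0.16 ± 0.05 in the average (11 of 14 pigs, adjusted p = 0.0119), and by 0.17 in exercised and 0.16 in sedentary pigs, neither of which passed alone (adjusted p = 0.0730 and 0.113). HMOX2 passed in exercised pigs under 6 of 30 alternatives (lowest adjusted p = 0.0105) and in sedentary pigs under 2 of 30 (lowest adjusted p = 0.0227). In pigs collected first and last the average was 0.20 and 0.13 for HMOX2 and 0.09 and 0.21 for NQO1, given next. NQO1 differed by 0.15 ± 0.05 in the average (12 of 14 pigs, adjusted p = 0.0171), by 0.20 ± 0.07 in exercised pigs (7 of 7, adjusted p = 0.0314) and by 0.10 ± 0.08 in sedentary pigs (adjusted p = 0.305). NQO1 passed under 26 of 30 alternatives in the average (highest adjusted p = 0.518) and under 21 of 30 in exercised pigs (highest adjusted p = 0.513). The call in the average was lost without sedentary pig 11_1 (0.11, adjusted p = 0.0509), among others. Among the losses in exercised pigs were those without exercised pig 10_5, 12_5, 14_3 or 15_2 (0.15 to 0.20, adjusted p from 0.0536 to 0.116), without the pig block (adjusted p = 0.0615) and with pig as a fixed block (adjusted p = 0.0760).

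The probe sets of the 2 ligase subunits did not move together between arteries. GCLC Ssc.2166.1.A1_at had 6.84, 7.41 and 7.79 in brachial arteries of exercised pigs, against 7.16, 7.62 and 7.91 in their internal mammary arteries, and 6.92, 7.23 and 7.66 in brachial arteries of sedentary pigs, against 7.13, 7.45 and 7.90 in their internal mammary arteries. The ranges overlapped, and it was lower in the brachial artery in 12 of 14 pigs (-0.25 ± 0.09, adjusted p = 0.0170). It passed under 22 of 30 alternatives. The call was lost with the arrays centred again (-0.20, adjusted p = 0.0592), and the smallest difference was that with the actin covariate (-0.05, adjusted p = 0.928). GCLC Ssc.29035.2.A1_at fell by 0.32 on the log2 scale (12 of 14 pigs, adjusted p = 0.00219), and by 0.40 in sedentary pigs (adjusted p = 0.0113). Its average difference was -0.52 in pigs collected first and -0.13 in those collected last (adjusted p = 0.301), and with the actin covariate it was 0.34 (adjusted p = 0.245), with the sign turned. The other GCLC probe sets had differences of 0.10, 0.11 and 0.04 (adjusted p = 0.0786, 0.0507 and 0.561). The difference of each of the first 2 was below that of each of the other 3 within pigs, with mean differences from -0.44 to -0.29 (exact sign-flip, adjusted p from 0.00119 to 0.00547).

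GCLM was measured with opposite signs. Ssc.24693.2.S1_at had 6.19, 6.63 and 7.09 in brachial arteries of exercised pigs, against 6.54, 6.88 and 7.34 in their internal mammary arteries, and 6.09, 6.55 and 6.83 in brachial arteries of sedentary pigs, against 6.42, 6.69 and 7.00 in their internal mammary arteries. It was lower in the brachial artery in 11 of 14 pigs (-0.23 ± 0.08, adjusted p = 0.0208). That call was lost with the arrays centred again (-0.18, adjusted p = 0.0770), without the pig block (adjusted p = 0.0611) and without exercised pig 10_5 or sedentary pig 11_4 or 12_3 (adjusted p from 0.0529 to 0.0555), was -0.05 in pigs collected last, and turned sign with the actin covariate (0.13, adjusted p = 0.743). Ssc.24693.1.S1_at was higher in the brachial artery in 12 of 14 pigs, by 0.21 ± 0.05 in the average (adjusted p = 0.000275), by 0.21 in exercised (adjusted p = 0.00830) and by 0.21 in sedentary pigs (adjusted p = 0.0125). Of the 29 alternatives that kept this probe set, it passed under 24 in exercised pigs (highest adjusted p = 0.318) and under 23 in sedentary pigs (highest adjusted p = 0.348). Quantile-normalized again, the arrays gave 0.13 in exercised (adjusted p = 0.0789) and 0.12 in sedentary pigs (adjusted p = 0.107), so both calls were lost. The sedentary call was lost without pig 11_1 (0.17, adjusted p = 0.0529) or 15_1 (0.18, adjusted p = 0.0574). Within pigs the difference of the first lay below that of the second in 14 of 14, by -0.46 on average (exact sign-flip, adjusted p = 0.000415).

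The wider pathway was read from lists of genes, each represented by its brightest probe set. Of 11 regulators of NRF2 only SQSTM1 was measured, whose protein p62 binds KEAP1 and releases NRF2. It changed by 0.11 ± 0.04 with training in the average (adjusted p = 0.116) and differed by -0.05 ± 0.03 between arteries (adjusted p = 0.158). No gene of any pathway list passed for training in a single artery, where 1.63% (brachial) and 0.596% (internal mammary) of all probe sets did.

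Among 29 other genes known as NRF2 targets 20 were measured. In the average training contrast 1 rose (2.88% of all probe sets), none fell (1.80%) and 19 did not pass, with a median change of 0.06 against 0.01 for all probe sets. The gene that rose was PIR, which encodes the iron-binding protein pirin (0.60 ± 0.17, adjusted p = 0.0443). PIR had 9.53, 9.82 and 10.92 in brachial arteries of exercised pigs, against 8.70, 9.44 and 9.73 in those of sedentary pigs, and 9.91, 10.44 and 11.41 in internal mammary arteries of exercised pigs, against 9.26, 9.67 and 10.67 in those of sedentary pigs. Exercised values were the higher in both arteries with overlap (0.59 and 0.61, adjusted p = 0.175 and 0.201). Next by p came the peroxide reducer PRDX1 (-0.21, adjusted p = 0.0637), thioredoxin, TXN (0.19, adjusted p = 0.0882), and catalase, CAT (0.23, adjusted p = 0.137), none of which passed.

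Between the arteries 5 of these 20 genes were higher and 5 lower in the brachial artery, where 31.8% of all probe sets were higher and 22.5% lower. Glutathione peroxidase GPX2 (0.35 ± 0.05, adjusted p = 4.03e-07) and ferritin heavy chain FTH1 (0.12 ± 0.02, adjusted p = 0.000202) were higher, and the pentose phosphate enzyme transketolase, TKT (-0.21 ± 0.04, adjusted p = 1.35e-05), and PIR (-0.56 ± 0.14, adjusted p = 0.000954) were lower. The others that passed were TXN (0.19), ME1 (0.52) and AKR7A2 (0.15), which were higher, and TXNRD1 (-0.38), CBR1 (-0.12) and CAT (-0.28), which were lower. Every CBR1 value (highest 2.93) lay far under 5.96, the upper limit of the dimmest 33.3% of probe sets. The internal mammary means of GPX2 (5.87 in exercised and 5.87 in sedentary pigs) lay under that limit, and its brachial means (6.27 and 6.16) lay little above it. The median difference was 0.02, against 0.03 for all probe sets.

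For glutathione synthesis and use 24 of 40 listed genes were measured, and the median training change was -0.01. LANCL1, which encodes a glutathione-binding protein, rose in the average training contrast (0.24 ± 0.06, adjusted p = 0.0144), where 2.88% of all probe sets did. None fell, where 1.80% of all probe sets did, and 23 did not pass. LANCL1 had 9.58, 9.75 and 9.94 in internal mammary arteries of exercised pigs, against 9.30, 9.49 and 9.72 in those of sedentary pigs, and 9.69, 9.85 and 10.17 in brachial arteries of exercised pigs, against 9.46, 9.66 and 9.88 in those of sedentary pigs. Its changes were 0.28 in the internal mammary and 0.20 in the brachial artery (adjusted p = 0.0606 and 0.169). ESD, which hydrolyses S-formylglutathione (0.16, adjusted p = 0.0636), the microsomal transferase MGST1 (0.39, adjusted p = 0.0831) and the lipid peroxide reducer GPX4 (-0.13, adjusted p = 0.141) came next and did not pass.

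Between the arteries 6 of 24 glutathione genes were higher and 2 lower in the brachial artery, against 31.8% and 22.5% of all probe sets. The highest ranked were GGT1, which breaks down extracellular glutathione (0.25 ± 0.04, adjusted p = 3.96e-06), glyoxalase GLO1 (0.22 ± 0.05, adjusted p = 0.00123), LANCL1 (0.16 ± 0.04, adjusted p = 0.00296) and the mitochondrial glutaredoxin GLRX5 (0.11 ± 0.03, adjusted p = 0.00358), and the other two were GPX4 (0.10) and ESD (0.12). The lower genes were CTH (-0.35, adjusted p = 0.0481) and GPX3 (-0.81, adjusted p = 0.0444). In sedentary pigs alone 2 of 24 passed, against 34.8% of all probe sets, and these were GGT1 (0.27) and LANCL1 (0.21).

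For heme synthesis, heme breakdown and iron handling 23 of 37 genes were measured. In the average training contrast ABCB6, a porphyrin transporter, rose (0.37 ± 0.09, adjusted p = 0.0172), where 2.88% of all probe sets did. The ferrous iron transporter SLC11A2 fell (-0.22 ± 0.06, adjusted p = 0.0314), where 1.80% did, and 21 did not pass. ABCB6 had 5.71, 5.81 and 5.95 in brachial arteries of exercised pigs, against 5.10, 5.47 and 5.64 in those of sedentary pigs, without overlap, and 5.45, 5.68 and 6.21 in internal mammary arteries of exercised pigs, against 5.16, 5.52 and 5.72 in those of sedentary pigs, with overlap. Of all probe sets 0.604% did not overlap in the brachial artery. The ABCB6 group means, from 5.40 to 5.83, lay under 5.96, the upper limit of the dimmest 33.3% of probe sets. SLC11A2 had 6.90, 7.20 and 7.46 in brachial arteries of exercised pigs, against 7.25, 7.44 and 7.69 in those of sedentary pigs, and 7.13, 7.37 and 7.42 in internal mammary arteries of exercised pigs, against 7.23, 7.49 and 7.67 in those of sedentary pigs, with overlap in both. The heme synthesis enzyme PPOX (0.27, adjusted p = 0.0683) and the heme-binding protein PGRMC1 (-0.22, adjusted p = 0.0769) did not pass.

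Between the arteries 6 of 23 heme and iron genes were higher and 3 lower in the brachial artery, against 31.8% and 22.5% of all probe sets. Hemopexin, HPX, the plasma carrier of free heme (0.27 ± 0.05, adjusted p = 2.14e-05), and hepcidin, HAMP, which blocks iron export (0.19 ± 0.04, adjusted p = 0.000798), were higher, as were FTH1, which this list shares with the NRF2 targets, FLVCR2 (0.40), ABCG2 (0.34) and TFRC (0.19). Every value of HAMP (highest 5.90) and TFRC (highest 5.25) lay under 5.96, the upper limit of the dimmest 33.3% of probe sets. IREB2, an iron-responsive RNA-binding protein, was lower (-0.34 ± 0.06, adjusted p = 3.71e-05), as were SLC11A1 (-0.40) and PGRMC1 (-0.17). For FLVCR2 and SLC11A1 the group means had these directions in exercised pigs alone. FLVCR2 had brachial and internal mammary means of 7.51 and 6.51 in exercised pigs, against 6.86 and 7.06 in sedentary pigs. SLC11A1 had 7.34 and 8.20 in exercised pigs, against 8.04 and 8.01 in sedentary pigs. In sedentary pigs alone 4 of the 23 passed, against 34.8% of all probe sets, with HPX at 0.34, HAMP at 0.20, FTH1 at 0.10 and IREB2 at -0.30.

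Genes with the most similar pattern were named by Pearson's correlation over the 29 arrays with each member's brightest probe set, as a description, since arrays share pigs and arteries. HMOX1 was most like IL10 (r = 0.88), TNFAIP8L2 (0.84) and the complement gene C1QC (0.83), which is on the macrophage list. NQO1 was most like RAMP2 (0.85), FAF2 (0.85) and S1PR1 (0.75). HMOX2 followed PNPLA6 (0.78), ACTR3B (0.76) and GINS4 (0.76), and GCLC followed ZCCHC11 (0.79), WWP1 (0.71) and RYBP (0.70). For GCLM these were VPS33A (0.83), SHTN1 (0.79) and SRBD1 (0.77), and for GSR they were ABCD3 (0.87), CCPG1 (0.84) and MARCH8 (0.83). GSTA1 was most like BUD23, SGSH and GIPC1 (0.94 each), and with group means removed these fell to 0.63, 0.59 and 0.53.

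The members did not form 1 pattern among themselves. Over the 21 pairs of the 7 brightest probe sets r ran from -0.55 (HMOX1 with GSTA1) to 0.57 (NQO1 with GSTA1), and with group means removed from -0.30 (GCLC with GSTA1) to 0.55 (NQO1 with GSR). The 17 pairs of probe sets of 1 gene ran from -0.37 (the 2 of GCLM) to 0.62 (GCLC Ssc.2166.1.A1_at with Ssc.29035.2.A1_at).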

How the data were processed

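RNA of scraped artery lining was amplified with an oligo(dT) primer, biotin-labelled and hybridised to 1-colour pig arrays, per the labels' protocols. The values are log2 probe set intensities as deposited by the authors. The submitters' processing notes name affy, and its version, background correction, normalization and summary are not given in the sources used here. Values ran from 1.97 to 14.79, with array medians from 7.13 to 7.28 and correlations between arrays from 0.965 to 0.995. The number of arrays limits the precision.

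The 124 control probe sets were left out, and no filter was set on the other 23999, of which 10069 carried 1 gene symbol, 198 several and 13732 none. Groups were taken from titles and tags. For the 8 internal mammary arrays of exercised pigs the source name says sedentary instead, and the design text says that the pig with 1 array had the brachial artery, where its label gives the internal mammary artery.

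limma 3.58.1 in R 4.3.3 was fitted to 4 group means with pig as a random block (consensus correlation 0.255), eBayes and Benjamini-Hochberg adjustment over all 23999 probe sets at 0.05, two-sided. The labels give the pig of each array. Arrays of 1 pig correlated in their deviations from group means with a median r of 0.19, against -0.02 for other pairs, and 7 of 14 brachial arrays correlated best with their own pig. Marker means and array measures were compared by exact permutation over pigs or sign flips within pigs. The relation of HMOX1 to macrophage markers used 100000 resamples. The 30 alternatives covered the block, scaling, dim probe sets, weights, covariates, collection periods and each pig left out. Pigs collected first (8) and last (7) were split by each pig's earliest date label. That label is named only date, and it was read here as the day of collection.

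The members and lists were chosen with earlier results of these data known. Named are all members, up to 4 genes a list by smallest p in each average contrast, any gene of a list where 5 or fewer passed, and 3 most similar genes a member. The other genes that passed in the average artery contrast were named after their values were seen. Lists of fibroblast, adipocyte, lymphocyte and erythroid markers were read as well. Of these the lymphocyte mean was 0.35 higher in internal mammary arteries of exercised pigs than of sedentary pigs (adjusted p = 0.0528), and the adipocyte mean 0.23 higher in brachial than in internal mammary arteries (adjusted p = 0.0801). Gene symbols are those of the platform, and all 16 member probe sets matched the RefSeq gene table by Entrez identifier.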

Additional observations from a re-analysis of the deposited data

Results flagged for a closer look

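For 1 of 64 sets of a member probe set and a group, the value at 1 end stood far from the rest by Dixon's test, which chance does in about 1 of 20 sets. It was GSR Ssc.23488.1.S1_at in the brachial artery of sedentary pig 15_1, at 5.68, where the next highest pig of that group had 5.45. The gap was 0.618 of the group's range.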

How the results depend on the processing

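Under 30 alternatives the members called for training stayed at 0 of 16, except for GSR Ssc.23488.1.S1_at, the 1 member called with array weights in the internal mammary artery and the 1 called without the pig block (no replicate block) in the average. All probe sets called moved with them, to 1.4% and 8.32%. Between arteries 5 members passed in exercised pigs, 4 in sedentary pigs and 9 in the average (41.2%, 34.8% and 54.3% of all probe sets). The actin covariate, whose values did not overlap between arteries, left 2, 2 and 2, against 8.77%, 6.18% and 9.51% of all probe sets. The macrophage covariate left 3 in exercised pigs, against 30.5%. Pigs collected first alone gave 3 in exercised pigs (22.3%) and 5 in the average (37.6%). Pigs collected last alone gave 2 in sedentary pigs (13.7%) and 5 in the average (35.8%). These periods hold fewer pigs. Leaving out the dimmest 33.3% of probe sets left 2 in sedentary pigs, since it removes dim members, against 37.6% of the probe sets kept. Leaving out each pig in turn gave 4 to 7, 3 to 4 and 8 to 10 members between arteries, and 0 for training and the interaction. The shares of all probe sets between arteries then ran from 35.1% to 43.8%, from 30% to 35.1% and from 51.3% to 55.1%. With pig as a fixed replicate block the members' counts stayed within 1.5 times. The share of all probe sets called for training was then 0.508% (brachial artery), 0.0542% (internal mammary artery) and 1.52% (average). Each pig was either exercised or sedentary, so training lies between pigs, and a fixed block does not measure the spread between them. No conclusion on training is drawn from that fit. Among artery differences reported as passed, sign turned with the actin covariate for GCLC Ssc.29035.2.A1_at in sedentary pigs (0.26, adjusted p = 0.457) and in the average (0.34, adjusted p = 0.245), and for GCLM Ssc.24693.2.S1_at in the average (0.13, adjusted p = 0.743). Differences that had not passed turned sign as well, such as that of GCLM Ssc.24693.2.S1_at in exercised pigs with the actin covariate (0.0795, adjusted p = 0.868) and in sedentary pigs under 3 of 30 alternatives. The cause was not tested. GSR Ssc.23488.1.S1_at and GSTA1 Ssc.16377.1.A1_s_at kept their artery direction and call under 29 alternatives each, leaving aside the filter on dim probe sets, which GSR passed through its internal mammary values and GSTA1 did not pass.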
